A study of Mus musculus with 6 samples.

Results

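The genes described here are 10 transcriptional regulators of mitochondrial and fatty acid metabolism, namely the coactivators Ppargc1a and Ppargc1b, the nuclear receptors Ppara, Ppard, Esrra, Esrrb, Esrrg, Rxra and Rxrg, and the transcription factor Nrf1. They were taken by gene symbol from the deposited table, in which all 10 have values among 26332 genes. Of these, 9 had a normalized read count of 10 or more in no fewer than 3 libraries and were tested among 14584 genes in all, and Rxrg did not. The libraries hold RNA of sorted atrial nuclei from 3 Prrx1(R1A)-/- mice and 3 control mice, all aged between 8 and 12 weeks, and neither another allele nor a treatment is given in the labels. The nuclei of the left and right atrium of each animal were combined and sorted for PCM1, a centriolar satellite protein that collects around the nucleus of cardiomyocytes, so 1 library stands for 1 animal and the 2 chambers cannot be told apart. The 2 groups were compared to describe the level of each regulator in Prrx1(R1A)-/- nuclei relative to control nuclei.

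PGC-1 coactivators (PGC-1α from Ppargc1a, PGC-1β from Ppargc1b) do not bind DNA themselves and act on promoters through the factors they dock on, among them the PPARs, the oestrogen-related receptors (ERRs) and NRF1. PPARα and PPARδ bind DNA as heterodimers with retinoid X receptors (RXRs) and drive genes of fatty acid uptake and oxidation when fatty acids occupy their ligand pocket, whereas ERRs bind without a known natural hormone and drive genes of the citric acid cycle and the respiratory chain. The heart, which runs mainly on fatty acids, is among the tissues in which these factors are best known, and NRF1 acts more broadly on nuclear genes for mitochondrial proteins.

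Libraries held between 11878824 and 14658584 reads in the Prrx1(R1A)-/- group and between 10580961 and 12080965 reads in the control group. Ribosomal RNA took 26.7, 28.9 and 39.8% of the reads in the 3 Prrx1(R1A)-/- libraries, and 46.5, 12.0 and 17.9% in the 3 control libraries, so control replicate 1 stood apart with the highest share. A gene seen with 0 reads could still have had up to 3, which equal between 2.22 and 3.77 normalized counts, depending on the library. Prrx1 itself, the gene the allele is named after, had normalized counts of 201, 194 and 183 in Prrx1(R1A)-/- nuclei, against 415, 335 and 282 in control nuclei (log2 fold change −0.82 ± 0.25 SE, adjusted p = 0.270). Its groups did not overlap, and Prrx1 in control replicate 3 is the single deposited value that is not a whole number of reads. The authors' deposited table gives Prrx1 a log2 fold change of −1.17, with a p of 0.0152 and an adjusted p of 0.0034. An adjusted p below its own p is irregular, and the reason is not known. The 13 cardiomyocyte markers summed to between 813974 and 1515701 normalized counts in Prrx1(R1A)-/- libraries, and to between 304403 and 587391 in control libraries, and none was at 0. Ttn alone held most of each sum, with between 581430 and 1235400 in Prrx1(R1A)-/- and between 217140 and 443910 in control libraries. The 10 fibroblast markers summed to between 23217 and 23485 in Prrx1(R1A)-/- libraries, against between 31458 and 42975 in control libraries, and the 10 immune markers to between 6890 and 9836, against between 7494 and 18254. The 10 endothelial markers summed to between 19068 and 24495, against between 22740 and 24693, and the 7 epicardial markers to between 7824 and 11705, against between 6919 and 12616. Markers of other cell types were thus read in every library, and levels below are those of the sorted nuclei as a whole. In sorted bulk nuclei, fewer nuclei of a type and less RNA per nucleus cannot be told apart, and this holds for every gene below.

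PGC-1β was the regulator with the clearest difference between the groups. Ppargc1b (gene ID 170826, mm10 chromosome 18, 61298136 to 61400431, minus strand) had normalized counts of 558, 566 and 357 in Prrx1(R1A)-/- nuclei, against 203, 195 and 220.2 in control nuclei. Every Prrx1(R1A)-/- library lay above every control library, and the 3 control values were close together while Prrx1(R1A)-/- replicate 3 was lower than its 2 partners. The means were 494 ± 119 in Prrx1(R1A)-/- nuclei and 206 ± 13.1 in control nuclei (SD, n = 3 each). The log2 fold change was 1.23 ± 0.26 (SE), with a 95% interval between 0.66 and 1.80, an unadjusted p of 0.000537 in limma and an adjusted p of 0.128 over all genes. It was thus not called at an adjusted p under 0.05, a threshold that 2 of 14584 genes, or 0.0137%, passed. The same gene ranked 60 among all genes by p, and the exact permutation test gave its smallest possible two-sided p of 0.1.

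Ppargc1b was called where the spread was modelled differently. DESeq2 on the recovered reads gave a log2 fold change of 1.26 (adjusted p = 0.00259), where 2.13% of genes were called, while edgeR called no gene. The authors' deposited table lists it at 1.11 on the log2 scale, with 0.00367 as its adjusted p. That table holds 1900 genes, none with an unadjusted p above 0.049985, and 227 of them have an adjusted p under 0.05. Of the regulators it lists only 3, and gives no value for the others. Among the 3 listed, 1, Ppargc1b, has an adjusted p under 0.05. Without control replicate 1 the log2 fold change of Ppargc1b was 1.22 and the adjusted p 0.0114, where 9.16% of genes were called. Its log2 fold change stayed between 1.11 and 1.45 when each library was left out in turn. Among the regulators, Ppargc1b was thus the one whose size depended least on control replicate 1.

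PGC-1α, the cold- and exercise-inducible paralogue, had the highest level of all 10 and the widest spread. Ppargc1a (gene ID 19017, mm10 chromosome 5, 51454250 to 51567726, minus strand) had 2754, 2021 and 1433 normalized counts in Prrx1(R1A)-/- nuclei, against 258, 1777 and 2341 in control nuclei. The groups overlapped, and control replicate 1 was far below all other libraries: the mean of the other 2 controls was 7.98 times its value. The log2 fold change was 0.96 ± 0.64 (SE, adjusted p = 0.573), and without control replicate 1 it was −0.03 (adjusted p = 0.955). With the ribosomal RNA level as a covariate it was 1.98 with an adjusted p of 0.0020, where 2.99% of genes were called. The direction for Ppargc1a therefore rested on 1 library.

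The ratio of both coactivators overlapped between the groups. Ppargc1a counts were 4.94, 3.57 and 4.02 times those of Ppargc1b in Prrx1(R1A)-/- nuclei, against 1.27, 9.12 and 10.6 times in control nuclei. All 3 Prrx1(R1A)-/- ratios lay between the ratio of control replicate 1 and those of the other 2 controls. The third family member, Pprc1, whose product PRC is a serum-responsive coactivator of NRF1, had 993, 1513 and 1347 normalized counts in Prrx1(R1A)-/- nuclei, against 732, 629.9 and 925 in control nuclei. Its groups did not overlap (log2 fold change 0.75 ± 0.24 SE, adjusted p = 0.284), and it shares exonic bases with Ldb1 on the opposite strand.

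**Figure D1:**
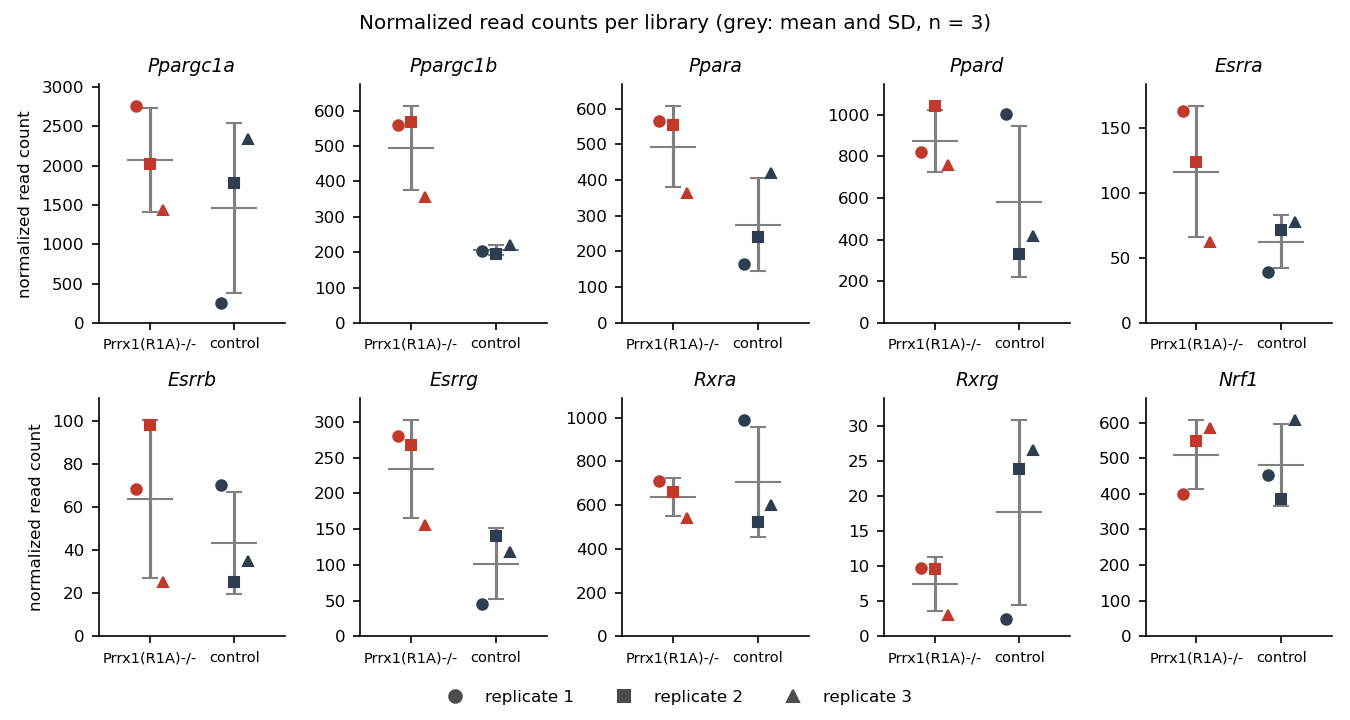
Normalized read count (y axis, from 0, its own scale in each panel) of the 10 regulators in each library, with Prrx1(R1A)-/- in red left of control in dark blue, marker shape giving the replicate number, and grey bars the mean and SD (n = 3). Only Ppargc1b and Esrrg had no overlap between the groups, with all Prrx1(R1A)-/- libraries above all controls, while Ppargc1a in control replicate 1 (258) and Ppard in control replicate 1 (1002) sat apart from their partners.

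Among the PPARs, Ppara encodes the receptor that dominates fatty acid oxidation in heart and liver. Ppara (gene ID 19013, mm10 chromosome 15, 85734983 to 85802819, plus strand) had 565, 553 and 363 normalized counts in Prrx1(R1A)-/- nuclei, against 165, 242 and 419.7 in control nuclei. The groups overlapped, because control replicate 3 was above Prrx1(R1A)-/- replicate 3. Means were 494 ± 113 in Prrx1(R1A)-/- nuclei and 275 ± 131 in control nuclei (SD, n = 3 each), with a log2 fold change of 0.92 ± 0.34 (SE), an unadjusted p of 0.0199 and an adjusted p of 0.339. The authors' deposited table lists it with a log2 fold change of 0.69 and an adjusted p of 0.266. It was called in 1 of 18 alternative analyses, the one with the ribosomal RNA covariate (log2 fold change 1.21, adjusted p = 0.0451, where 2.99% of genes were called), and without control replicate 1 its log2 fold change was 0.60.

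The Ppara promoter is shown because it and that of Esrrg, which follows with its gene, held the motif matches found among the regulators. It is the RefSeq window of the 250 bases before the annotated start (GRCm38.p6, plus strand, chr15:85735526-85735775, 5′ to 3′), with the letters that match the NRF1 motif in capitals:
Ppara promoter: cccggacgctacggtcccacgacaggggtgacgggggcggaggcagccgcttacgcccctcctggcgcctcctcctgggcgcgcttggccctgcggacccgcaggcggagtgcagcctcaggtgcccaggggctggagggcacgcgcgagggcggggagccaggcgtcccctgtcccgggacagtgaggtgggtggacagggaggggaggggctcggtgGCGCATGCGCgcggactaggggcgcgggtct
The match begins 31 bases before this RefSeq start, which lies inside the gene span given above from GENCODE. The motif searched was GCGCNNGCGC, which reads alike on both strands, and 6.23% of 32851 RefSeq windows of 300 bases (250 before and 50 after a start) held it. A match is a description of letters and not a measured binding site.

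Ppard, the more widely expressed paralogue, had another order across libraries than Ppara. It had 822, 1041 and 760.0 normalized counts in Prrx1(R1A)-/- nuclei, against 1002, 332 and 417 in control nuclei. All Prrx1(R1A)-/- libraries exceeded control replicates 2 and 3, and control replicate 1 lay among them. The log2 fold change was 0.74 ± 0.36 (SE, adjusted p = 0.439). Without control replicate 1 it was 1.22 with an adjusted p of 0.00587, where 9.16% of genes were called, and with library quality weights 1.12 with an adjusted p of 0.00922, where 10.4% were. With the ribosomal RNA covariate it was 0.26 (adjusted p = 0.625), and without control replicate 2 it was 0.42 (adjusted p = 0.814). Counts of Ppard were 1.46, 1.88 and 2.09 times those of Ppara in Prrx1(R1A)-/- nuclei, against 6.08, 1.37 and 0.993 times in control nuclei, and these ranges overlapped.

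Summed per kilobase of exon, Ppara and Ppard together reached 257, 283 and 196 in Prrx1(R1A)-/- nuclei, against 176, 107 and 165 in control nuclei, and the groups did not overlap. Pparg, the paralogue best known from fat cells, had 97.7, 139 and 53.6 normalized counts in Prrx1(R1A)-/- nuclei, against 34.0, 111 and 122 in control nuclei. Its groups overlapped, with a log2 fold change of 0.22 ± 0.52 (SE, adjusted p = 0.900). Of 11 adipocyte markers 5 passed the filter. Of the 6 below it, Adipoq, the adipokine of all fat cells, lay between 0 and 8.09 in Prrx1(R1A)-/- libraries, against 0 to 23.2 in control libraries. Cfd reached 7.20 in Prrx1(R1A)-/- replicate 2 and 26.96 in control replicate 2, and Cidea 31.3 in Prrx1(R1A)-/- replicate 3 and 9.64 in control libraries. Ucp1, of brown fat, reached 2.17 in Prrx1(R1A)-/- and 5.24 in control libraries, and the highest value of Lep and Retn was 13.8, for Lep in control replicate 1. Plin1, a lipid droplet protein that passed the filter, reached 30.3 in Prrx1(R1A)-/- replicate 3 and 73.4 in control replicate 2. Fabp4 had 259, 332 and 257 in Prrx1(R1A)-/- nuclei, against 226, 865 and 782 in control nuclei. Lipe had 327, 487 and 381 against 240, 406 and 294, and Cidec 11.9, 56.4 and 8.09 against 34.0, 44.2 and 0. All 3 overlapped between the groups, and without control replicate 1 Fabp4 was called lower, where 9.16% of genes were called. Fabp4 and Lipe held most of the counts of this list. The 11 summed to between 712 and 1033 in Prrx1(R1A)-/- libraries and to between 575 and 1577 in control libraries.

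Of the ERRs, Esrrg had the largest log2 fold change with all libraries in limma, at 1.31 against 1.23 for Ppargc1b, whereas in DESeq2 (1.20 against 1.26), in edgeR (1.19 against 1.26) and without control replicate 1 (0.81 against 1.22) Ppargc1b was above it. ERRγ is the family member best known for sustaining oxidative metabolism in the postnatal heart. Esrrg (gene ID 26381, mm10 chromosome 1, 187608791 to 188214885, plus strand) had 280.1, 268 and 156 normalized counts in Prrx1(R1A)-/- nuclei, against 45.3, 140.1 and 119 in control nuclei. All Prrx1(R1A)-/- libraries lay above all controls, although Prrx1(R1A)-/- replicate 3 and control replicate 2 were close. The log2 fold change was 1.31 ± 0.43 (SE), with a 95% interval between 0.37 and 2.25, an unadjusted p of 0.0107 and an adjusted p of 0.295. In the authors' deposited table its log2 fold change is 0.93 with an adjusted p of 0.129.

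Control replicate 1 carried part of this difference. Without it the log2 fold change of Esrrg was 0.81 (adjusted p = 0.114). With library quality weights it was 0.99 with an adjusted p of 0.0474 (10.4% of genes called), and with the ribosomal RNA covariate 1.89 with an adjusted p of 0.00362 (2.99% of genes called). The recovered reads behind the values were 258, 223 and 154 in Prrx1(R1A)-/- libraries, against 36, 187 and 160 in control libraries.

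The Esrrg promoter is given as the 250 bases before 1 of its annotated starts, from RefSeq (GRCm38.p6, plus strand, chr1:187608756-187609005, 5′ to 3′), with the match to the MEF2 motif in capitals:
Esrrg promoter: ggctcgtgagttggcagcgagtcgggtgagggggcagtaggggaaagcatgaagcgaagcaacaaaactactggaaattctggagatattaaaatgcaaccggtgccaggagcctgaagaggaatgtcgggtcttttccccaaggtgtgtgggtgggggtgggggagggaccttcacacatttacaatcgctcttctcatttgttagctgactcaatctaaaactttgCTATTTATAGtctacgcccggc
This match begins 22 bases before that RefSeq start, which also lies inside the gene span given above from GENCODE. The motif searched, CTANNNNTAG, which also reads alike on both strands, was in 3.69% of all windows. Of 16 RefSeq windows for 9 of the regulators (Ppargc1b had no entry), 1 held each of these motifs. None held an ERR site (TNAAGGTCA, in 1.28% of all windows), a cyclic AMP element (TGACGTCA, 1.79%) or a direct repeat spaced by a single base (AGGTCANAGGTCA, 0.0396%), searched on both strands. The direct repeat overlaps the ERR site in its AGGTCA letters.

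Esrra, the most studied ERR and a partner of PGC-1α, was lower in level than Esrrg and its groups overlapped. It had 163, 124 and 62.7 normalized counts in Prrx1(R1A)-/- nuclei, against 39.0, 71.2 and 77.9 in control nuclei. Prrx1(R1A)-/- replicates 1 and 2 exceeded all controls, while replicate 3 was below 2 of them. The log2 fold change was 0.84 ± 0.44 (SE, adjusted p = 0.471), and without control replicate 1 it was 0.53. Esrra shares 73 exonic bases with Trmt112 on the opposite strand and contains Mir6990, and the library method keeps no strand, so reads in that stretch cannot be assigned.

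Esrrb, best known from stem cells and the inner ear, was the lowest of the tested regulators. It had 68.4, 98.4 and 25.3 normalized counts in Prrx1(R1A)-/- nuclei, against 70.5, 25.5 and 34.9 in control nuclei, and its groups overlapped (log2 fold change 0.47 ± 0.57 SE, adjusted p = 0.774). Leaving out a library moved this between 0.07 without Prrx1(R1A)-/- replicate 2 and 1.03 without Prrx1(R1A)-/- replicate 3. Summed per kilobase of exon, the 3 ERRs reached 93.6, 87.5 and 43.5 in Prrx1(R1A)-/- nuclei, against 27.8, 43.0 and 42.6 in control nuclei. These sums did not overlap, but Prrx1(R1A)-/- replicate 3 was nearly level with 2 controls. Esrrg made up 48.2, 49.2 and 57.6% of the sum in Prrx1(R1A)-/- nuclei, against 26.2, 52.5 and 44.8% in control nuclei, so its share overlapped between the groups.

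The RXR partners of the PPARs overlapped between the groups. Rxra, the main RXR of the heart, had 709, 661 and 541 normalized counts in Prrx1(R1A)-/- nuclei, against 990.3, 525 and 599.9 in control nuclei. The groups overlapped, and the log2 fold change was −0.10 ± 0.27 (SE, adjusted p = 0.913), with a 95% interval between −0.68 and 0.48. It was 0.17 without control replicate 1, the highest library. Rxrb, the paralogue outside the 10, had 283, 419.9 and 242 normalized counts in Prrx1(R1A)-/- nuclei, against 229, 227 and 243 in control nuclei (log2 fold change 0.39 ± 0.27 SE, adjusted p = 0.583).

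Rxrg, the RXR known from skeletal muscle and brain, was close to the limit of detection in part of the libraries. Its recovered reads were 9, 8 and 3 in Prrx1(R1A)-/- libraries, against 2, 32 and 36 in control libraries, or 9.77, 9.60 and 3.03 against 2.52, 24.0 and 26.7 normalized counts. Prrx1(R1A)-/- replicate 3 and control replicate 1 were thus at or under this limit of 3 reads, and control replicates 2 and 3 were above all other libraries. Fitted without the filter, its log2 fold change was −0.80 ± 0.94 (SE, unadjusted p = 0.410), so no difference was detected with all libraries. Control replicate 1 lay below all Prrx1(R1A)-/- libraries, whereas control replicates 2 and 3 lay above them. No fit of Rxrg without control replicate 1 was made, and the reason for the wide error was not tested.

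Nrf1 encodes nuclear respiratory factor 1, which binds promoters of respiratory chain and mitochondrial import genes. It had 399.5, 547 and 584 normalized counts in Prrx1(R1A)-/- nuclei, against 452, 385 and 608 in control nuclei. The groups overlapped over nearly their whole range, with a log2 fold change of 0.09 ± 0.26 (SE, adjusted p = 0.918) and a 95% interval between −0.47 and 0.65.

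Read as a group, 8 of the 9 tested regulators had a log2 fold change above 0, where 49.7% of all tested genes did, and their median was 0.84, against −0.00 for all genes tested. None was called by limma. In 3 of the 9 (Ppargc1b, Ppara and Esrrg) the unadjusted p was under 0.05 in the direction of higher counts, where 6.67% of all genes were, and in 2 of the 9 (Ppargc1b and Esrrg) the groups did not overlap, where 8.89% of all genes were higher without overlap. Without control replicate 1 the median of the 9 was 0.60. With reads scaled to the library total without ribosomal RNA it was 0.49, under a scaling that moved the median of all genes to −0.35.

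**Figure D2:**
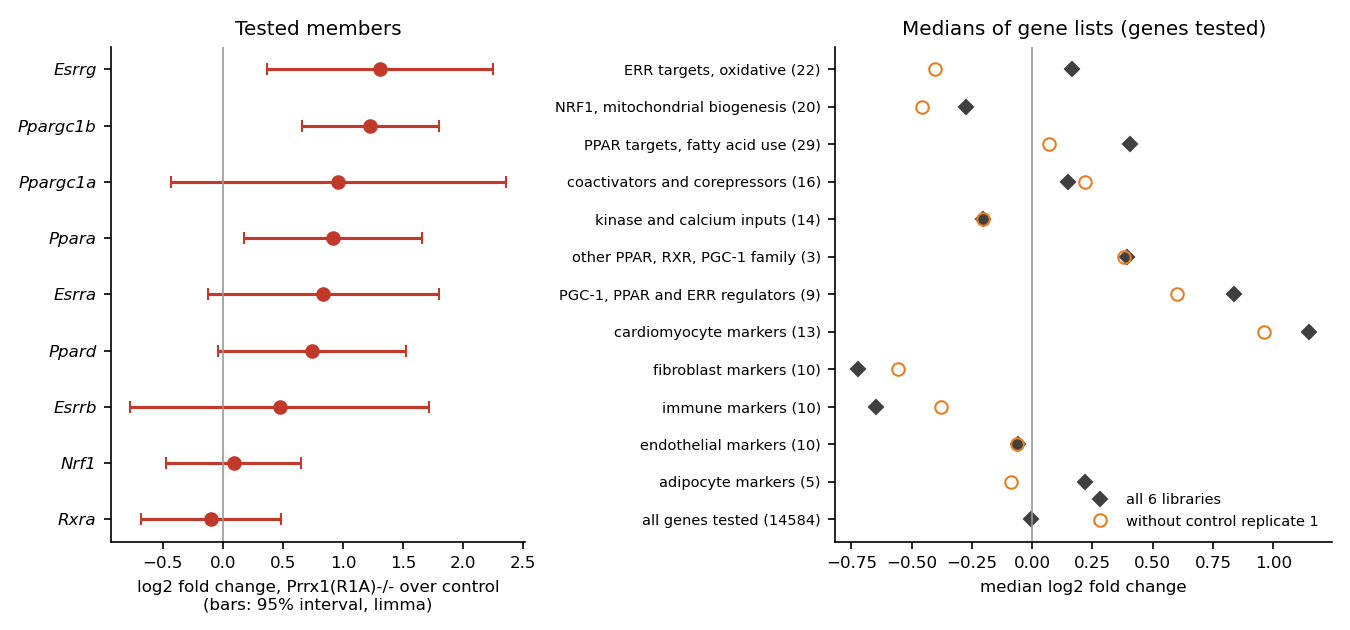
Left, log2 fold change of the 9 tested regulators, Prrx1(R1A)-/- over control, with 95% intervals of limma. Right, median log2 fold change of each gene list and marker list, with the number of genes tested in brackets, from all 6 libraries (diamonds) and without control replicate 1 (open circles). The intervals of Esrrg, Ppargc1b and Ppara lie above 0 before adjustment, and the median of the ERR targets is 0.16 with all libraries and −0.40 without control replicate 1.

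Per kilobase of exon, Ppargc1a was the most abundant regulator (314 ± 100.4 in Prrx1(R1A)-/- nuclei and 221 ± 163 in control nuclei, SD, n = 3 each). Over all 6 libraries the mean level ran in the order Ppargc1a, Rxra, Ppara, Ppard, Ppargc1b, Nrf1, Esrrg, Esrra and Esrrb, with Rxrg below the filter. The order differed between the groups: in Prrx1(R1A)-/- nuclei Ppara (129), Ppargc1b (124), Rxra (117) and Ppard (116) followed Ppargc1a per kilobase, whereas in control nuclei Rxra (129), Ppard (77.6), Ppara (71.8) and Ppargc1b (51.6) did. Rxra exceeded Ppara in 1 of 3 Prrx1(R1A)-/- libraries and in 3 of 3 control libraries, a difference that was not tested. The ranges of all 8 neighbouring pairs in this order overlapped. Ppargc1a exceeded Rxra in 5 of 6 libraries, the exception being control replicate 1, whereas Ppard exceeded Ppargc1b in 3 of 6. Per kilobase, Ppargc1b reached 124 ± 29.7 in Prrx1(R1A)-/- nuclei and 51.6 ± 3.27 in control nuclei.

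**Figure D3:**
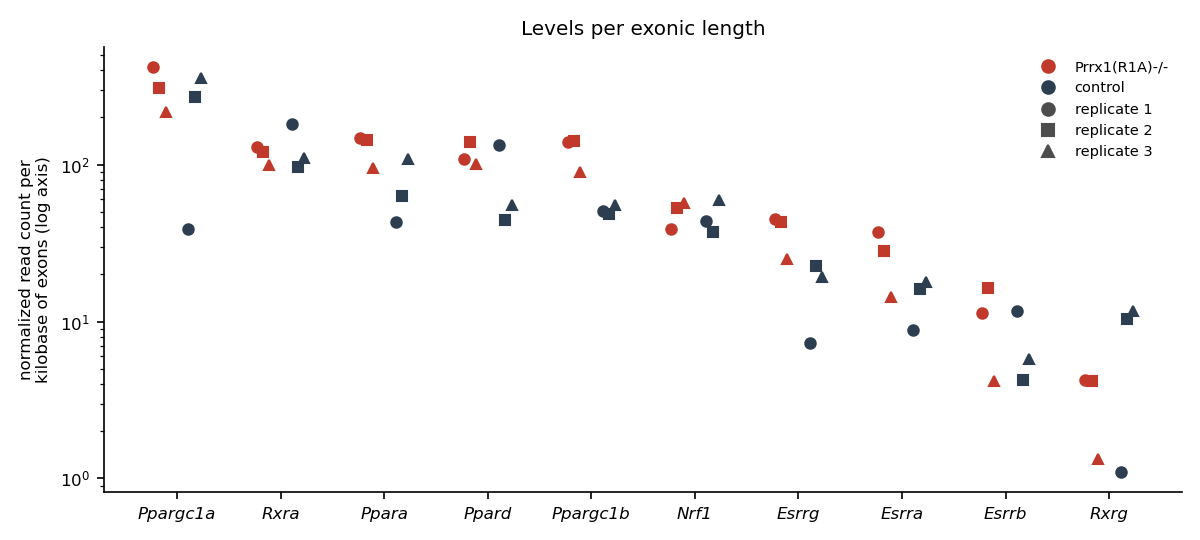
Normalized read count per kilobase of exon (log axis) of the 10 regulators in each library, ordered by the mean over the 6 libraries except Rxrg, which is below the filter and placed last. Prrx1(R1A)-/- is red and left of control in dark blue, and marker shape gives the replicate. Ppargc1a leads in 5 of 6 libraries, neighbouring genes overlap, and Ppargc1a in control replicate 1 (39.1) lies far below its other values.

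Most markers of cardiomyocytes were higher in Prrx1(R1A)-/- libraries as well, although limma called none with all libraries. They differed in size: Nppa, Myl7, Actc1 and Myl4 had log2 fold changes of 0.37, 0.51, 0.61 and 0.62 with overlapping groups, against 1.48 for Tnnt2 and 1.59 for Myh6. The authors' deposited table gives adjusted p-values of 9.4e-08 for Myh6 and 3.8e-05 for Tnnt2. Those of Ttn, Mybpc3, Ryr2, Tnni3 and Actn2 are also under 0.05 there. Tnnc1 has 0.178, and the other markers are not listed. In 7 of the 13 all Prrx1(R1A)-/- libraries lay above all controls, where 8.89% of all genes were higher without overlap. Of 13 markers tested, 12 had a log2 fold change above 0, with a median of 1.15 (0.96 without control replicate 1), while 0 of 10 fibroblast markers (median −0.72) and 0 of 10 immune markers (median −0.65) did. Without control replicate 1 these medians were −0.56 for fibroblast and −0.38 for immune markers. The median was −0.06 for 10 endothelial markers, with and without that library. Medians were −0.05 for 9 smooth muscle and pericyte, −0.17 for 7 epicardial, 0.27 for 6 Schwann cell and neuron and 0.22 for 5 adipocyte markers tested, against 0.22, 0.11, 0.0036 and −0.09 (4 tested) without control replicate 1, so 3 of these 4 turned in direction. The mean log2 level of the 12 cardiomyocyte markers other than Pcm1 was 13.87, 13.70 and 13.44 in Prrx1(R1A)-/- nuclei, against 11.96, 12.62 and 13.19 in control nuclei, a difference of 1.08 (0.77 without control replicate 1) with no overlap. Pcm1, whose protein was the sorting mark, had 1199, 1040 and 1341 normalized counts in Prrx1(R1A)-/- nuclei, against 1135, 1712 and 1547 in control nuclei (log2 fold change −0.28 ± 0.22 SE, adjusted p = 0.637).

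Set against these markers, 7 of the 9 tested regulators overlapped between the groups when all 6 libraries were kept. Relative to the marker mean, the log2 level of Ppargc1b was −4.74, −4.55 and −4.96 in Prrx1(R1A)-/- nuclei, against −4.29, −5.01 and −5.40 in control nuclei, which overlap, with a difference of 0.15. The difference was 0.22 for Esrrg, −0.12 for Ppargc1a, −0.17 for Ppara, −0.25 for Esrra, −0.34 for Ppard and −0.61 for Esrrb, all with overlapping groups. Control replicate 1 set many of these values: without it, a choice made after seeing the data, the difference was 0.45 for Ppargc1b, 0.45 for Ppard and −0.80 for Ppargc1a, and these groups no longer overlapped. It was then 0.04 for Esrrg, 0.11 for Esrrb, −0.17 for Ppara and −0.23 for Esrra, still with overlap. Ppard and Esrrb thereby turned in direction. Rxra and Nrf1 were lower relative to the markers, by differences of −1.18 and −0.99 (−0.59 and −0.71 without control replicate 1), and their groups did not overlap with or without it. The marker mean itself differed by 1.08 (0.77 without control replicate 1), so a gene with equal counts in both groups would lie about that far below. The log2 fold changes of Rxra and Nrf1 were −0.10 and 0.09, so their differences here largely return that of the markers. How many of all genes did not overlap on this scale was not counted. Relative to the markers, Rxra stood at −4.36 ± 0.03 in Prrx1(R1A)-/- nuclei and at −3.18 ± 1.04 in control nuclei (SD, n = 3 each). These differences are descriptions without a test, and what part the marker difference has in the levels of the regulators was not tested.

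**Figure D4:**
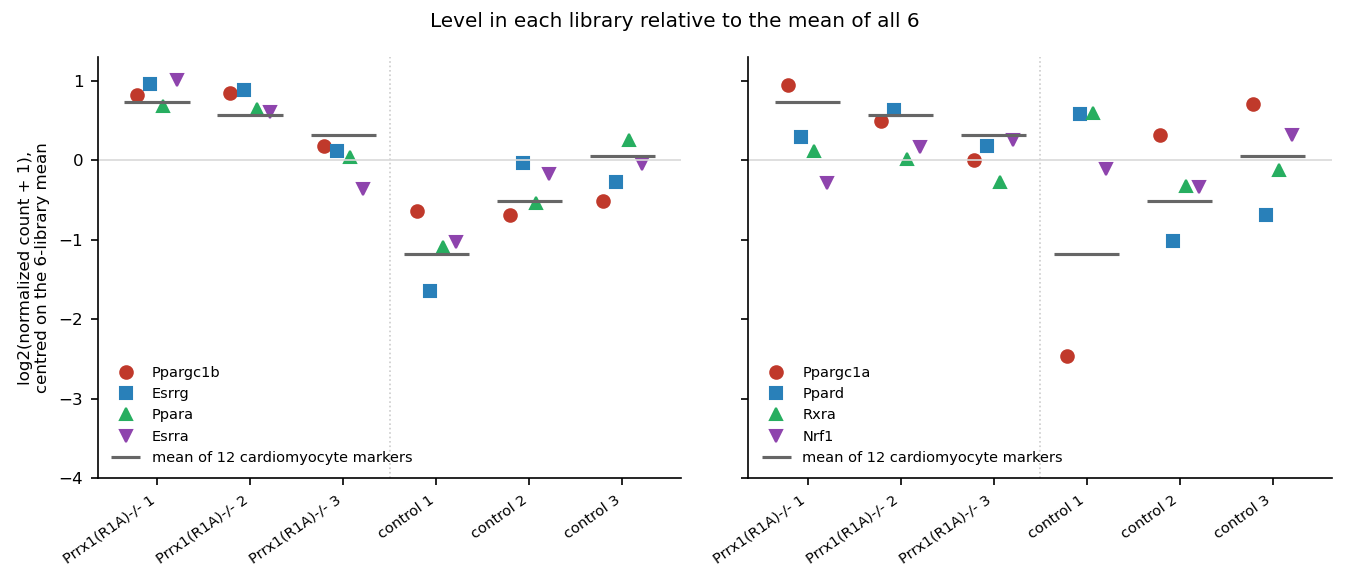
Level of 8 regulators in each library on the scale log2(normalized count + 1), centred on the mean of each gene over the 6 libraries, with dark bars for the mean of 12 cardiomyocyte markers. In the left panel Ppargc1b, Esrrg, Ppara and Esrra lie near the marker bars in most libraries, while in the right panel Ppargc1a in control replicate 1 is below the bar, and Ppard, Rxra and Nrf1 in control replicate 1 are above it.

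By the smallest mean absolute difference of centred log2 values over the 6 libraries, the genes nearest in pattern to Ppargc1b were Adcy5 (0.072), Acacb (0.072) and Filip1 (0.080), where the median over all genes was 0.691. Adcy5 encodes a cardiac adenylyl cyclase, Acacb the mitochondrial acetyl-CoA carboxylase that makes malonyl-CoA, and Filip1 a filamin-binding protein. Acacb had 3062, 3784 and 2182 normalized counts in Prrx1(R1A)-/- nuclei, against 1301, 1271 and 1360.0 in control nuclei. Like those of Ppargc1b, its control libraries were close together and its groups did not overlap (adjusted p = 0.0963).

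The genes nearest to Esrrg were Ctnna3 (0.092), Ank3 (0.093) and Nexn (0.117), with a median over all genes of 0.780. They encode αT-catenin of the intercalated disc, ankyrin-G and the sarcomeric protein nexilin. Ank3 had 1716, 1953 and 1079 normalized counts in Prrx1(R1A)-/- nuclei, against 296, 889.8 and 868 in control nuclei, with control replicate 1 the lowest, as for Esrrg. Nearest to Ppara were Wdr92 (0.093), Six4 (0.097) and Ppfia4 (0.097), with a median of 0.641, all at mean counts between 51.4 and 60.4 in Prrx1(R1A)-/- nuclei and between 29.6 and 37.7 in control nuclei. Six4 encodes a homeobox factor and Ppfia4 a liprin. Wdr92 shares 462 of its 2497 exonic bases with Ppp3r1 on the same strand and 33 with Pno1 on the opposite strand. Nexn shares exonic bases with Gm43185 on the same strand.

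Target genes of the PPARs in fatty acid use were more often above 0 than below it in log2 fold change, without a call in limma. Of 31 genes listed 29 were tested, 22 had a log2 fold change above 0 and the median was 0.41, but 0.07 without control replicate 1. An unadjusted p under 0.05 was found for 6 with higher counts (background 6.67%) and for 1 with lower counts (background 5.25%), and adjusted p-values began at 0.170. Slc27a1, a fatty acid transport protein, had 1236, 1210 and 982 normalized counts in Prrx1(R1A)-/- nuclei, against 478, 585 and 735 in control nuclei. Its groups did not overlap, with a log2 fold change of 0.94 ± 0.23 (SE). Without control replicate 1 it was the 1 gene called among the 29 tested of this list, where 9.16% of all genes were called. The authors' deposited table gives Slc27a1 an adjusted p of 0.0323.

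Plin5, which coats lipid droplets next to mitochondria, had 126, 160 and 123 normalized counts in Prrx1(R1A)-/- nuclei, against 34.0, 65.9 and 93.4 in control nuclei, with no overlap (log2 fold change 1.17 ± 0.40 SE, adjusted p = 0.311). Vldlr, the receptor for very low density lipoprotein and the most abundant of the list, had 20946, 16461 and 5995 normalized counts in Prrx1(R1A)-/- nuclei, against 1319, 10378 and 6907 in control nuclei. Its groups overlapped, and control replicate 1 was lowest (log2 fold change 1.48 ± 0.66 SE, adjusted p = 0.406). The member with lower counts and an unadjusted p under 0.05, among 7 with a log2 fold change below 0, was Mlycd, malonyl-CoA decarboxylase, with 128, 34.8 and 43.5 normalized counts in Prrx1(R1A)-/- nuclei, against 189, 104 and 133 in control nuclei (log2 fold change −1.24 ± 0.48 SE, adjusted p = 0.358). Cpt1b, the muscle carnitine palmitoyltransferase and a classic PPARα target, had 57.5, 58.8 and 20.2 in Prrx1(R1A)-/- nuclei, against 16.4, 28.5 and 23.0 in control nuclei, which overlap, and was picked out after its values were seen. It shares 2744 of its 3372 exonic bases with Gm44502 on the same strand. Reads in that stretch cannot be assigned, so these counts may not give its level.

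Target genes of the ERRs in oxidative metabolism divided. Of 24 listed 22 were tested, 14 had a log2 fold change above 0 and the median was 0.16, and without control replicate 1 the median was −0.40, with 4 genes called higher (Cox6a2, Mb, Mfn2 and Vegfa) and 4 called lower (Atp5b, Atp5g3, Cs and Sdha), in a fit that called 9.16% of all genes. With all libraries limma called none, and 4 had an unadjusted p under 0.05, all with higher counts (background 6.67%). Mfn2, the outer membrane GTPase of mitochondrial fusion, had 1524, 1611 and 1518 normalized counts in Prrx1(R1A)-/- nuclei, against 764, 603 and 750.4 in control nuclei. Both groups were tight and did not overlap (log2 fold change 1.14 ± 0.20 SE, adjusted p = 0.0940, and 0.00068 in the authors' deposited table).

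Cox6a2, the striated muscle isoform of a cytochrome c oxidase subunit, had 940.2, 839.9 and 1706 normalized counts in Prrx1(R1A)-/- nuclei, against 355, 479 and 664 in control nuclei, with no overlap (log2 fold change 1.19 ± 0.31 SE, adjusted p = 0.203). It shares exonic bases with Itgad on the opposite strand. Vegfa, an angiogenic factor and the most abundant of the list, had 4672, 4658 and 3032 normalized counts in Prrx1(R1A)-/- nuclei, against 2636, 1749 and 2128 in control nuclei, with no overlap (log2 fold change 0.92 ± 0.24 SE, adjusted p = 0.207). In contrast, Atp5b, the β subunit of ATP synthase, had 1450.4, 986 and 1288 normalized counts in Prrx1(R1A)-/- nuclei, against 842, 1809 and 2314 in control nuclei, where control replicate 1 stood below its 2 partners and the groups overlapped.

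Genes of NRF1 and mitochondrial biogenesis were more often below 0 than above it in log2 fold change, without a call in limma. Of 21 listed 20 were tested (Twnk under its older symbol Peo1), 7 had a log2 fold change above 0, and the median was −0.27 (−0.46 without control replicate 1). An unadjusted p under 0.05 was found for 2 with higher counts (background 6.67%) and for 3 with lower counts (background 5.25%). Surf1, an assembly factor of cytochrome c oxidase, had 70.6, 48.0 and 62.7 normalized counts in Prrx1(R1A)-/- nuclei, against 142, 138 and 163 in control nuclei, with no overlap (log2 fold change −1.29 ± 0.32 SE, adjusted p = 0.181). It shares exonic bases with Surf2 on the opposite strand. Cox17, a copper chaperone of the same enzyme, had 31.5, 45.6 and 64.7 in Prrx1(R1A)-/- nuclei, against 128, 91.4 and 96.4 in control nuclei, again without overlap (log2 fold change −1.18 ± 0.39 SE, adjusted p = 0.295).

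The most abundant gene of that list, Nfe2l2, which encodes the antioxidant regulator NRF2, had 1813, 1635 and 2398 normalized counts in Prrx1(R1A)-/- nuclei, against 2213, 2367 and 2477 in control nuclei (log2 fold change −0.29 ± 0.21 SE, adjusted p = 0.605). The groups overlapped. Tfam, the packaging factor of mitochondrial DNA and a textbook NRF1 target, was picked out after its values were seen. It had 53.2, 36.0 and 21.2 normalized counts in Prrx1(R1A)-/- nuclei, against 122, 104 and 44.5 in control nuclei, with overlap (log2 fold change −1.24 ± 0.50 SE, adjusted p = 0.371).

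Among 16 coactivators and corepressors of nuclear receptors, 10 had a log2 fold change above 0, the median was 0.15 and limma called none. Perm1, a muscle protein named for its induction by PGC-1 and ERRs, had 1281, 944 and 796 normalized counts in Prrx1(R1A)-/- nuclei, against 338, 428 and 521 in control nuclei. All Prrx1(R1A)-/- libraries exceeded all controls, with a log2 fold change of 1.22 ± 0.25 (SE, adjusted p = 0.124), and it was the only one of the 16 with an unadjusted p under 0.05. In the authors' deposited table Perm1 has a log2 fold change of 1.09 and an adjusted p of 0.00399.

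Of 14 kinase and calcium inputs to PGC-1 and PPAR activity, 5 had a log2 fold change above 0, the median was −0.21 and none was called. Mef2d, a calcium-responsive factor that acts on the Ppargc1a promoter in muscle, had 2864, 3570 and 3030.1 normalized counts in Prrx1(R1A)-/- nuclei, against 2157, 1758 and 1933 in control nuclei, with no overlap (log2 fold change 0.69 ± 0.20 SE, adjusted p = 0.246). Its paralogues Mef2a and Mef2c had log2 fold changes of −0.28 ± 0.24 and −0.29 ± 0.25 (SE, adjusted p = 0.672 and 0.656), and both are named beside it with their values already seen. Prkag2, a regulatory subunit of the energy sensor AMPK, had 567, 659 and 675 normalized counts in Prrx1(R1A)-/- nuclei, against 557, 259 and 394 in control nuclei, which did not overlap, although control replicate 1 was only just below (log2 fold change 0.71 ± 0.28 SE, adjusted p = 0.364). Both Mef2d and Prkag2 share exonic bases with genes on the opposite strand.

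**Figure D5:**
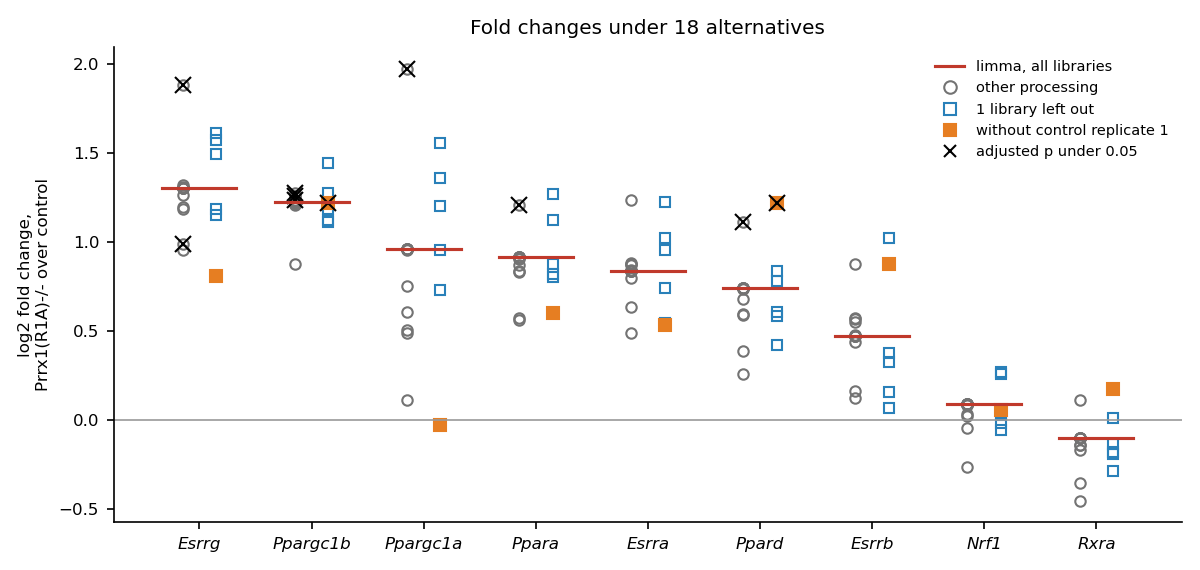
Log2 fold change of each tested regulator, Prrx1(R1A)-/- over control, in limma with all libraries (red line) and under 18 alternatives (circles for other processing, squares for 1 library left out, filled squares without control replicate 1), with crosses where the adjusted p was under 0.05. Ppargc1b stayed above 0 in all 18 and was called in 4, in fits that called between 2.13 and 10.4% of all genes. Ppargc1a was at −0.03 without control replicate 1.

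Across the 18 alternatives the log2 fold change kept its sign in all 18 for Ppargc1b, Ppara, Ppard, Esrra, Esrrb and Esrrg, in 17 for Ppargc1a, in 15 for Rxra and in 14 for Nrf1. The number called was 4 for Ppargc1b, 2 each for Esrrg and Ppard, 1 each for Ppara and Ppargc1a, and 0 for Esrra, Esrrb, Rxra and Nrf1. All calls came from DESeq2, the ribosomal RNA covariate, the fit without control replicate 1 and library quality weights. These called 2.13, 2.99, 9.16 and 10.4% of all genes. The counts of signs and calls describe how each value moved with the choice of libraries and scaling.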

How the data were processed

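Nuclear RNA of PCM1-sorted atrial nuclei was sequenced in 3 Prrx1(R1A)-/- and 3 control mice, 1 library per animal. Per the submitters' processing notes, the authors used STAR, DESeq2 and mm10. Their versions, the counter and the annotation were not given in the sources used here. Per the file headers, the deposited sheets hold normalized counts per gene and library (a signal value), and a comparison table with mean signal, log2 fold change and its standard error, Wald score, p-value, adjusted p-value and its −log10. Each deposited column was a whole multiple of 1 step per library (tolerance 0.01 reads, 1 exception), from which reads were recovered and rounded. A further 847 entries without a value were left out.

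The 14584 genes with 10 or more normalized counts in no fewer than 3 libraries were tested with limma-trend (limma 3.58.1, R 4.3.3) on log2(normalized count + 1), two-sided, with Benjamini-Hochberg adjustment over all genes tested and a threshold of 0.05. Fold changes are on that scale and understate those of low genes. The exact permutation test over 20 labelings cannot give a p under 0.1. The fit was tested on simulated data. Alternatives used other pseudocounts, filters and scalings, edgeR 4.0.16, DESeq2 1.42.0, quality weights, a ribosomal RNA covariate (log2 normalized count of Rn45s), the replicate number as a block, and each library left out. Limits set by 3 reads cover counting error only, since amplified reads are not independent molecules. Gene spans, exons and overlaps are from GENCODE for GRCm38, the genome that mm10 denotes, and promoter starts are from RefSeq. The library method keeps no strand. Plots used matplotlib 3.10.9.

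The 10 regulators and the gene and marker lists were chosen with earlier results of these data known. The genes named were the 10 regulators, Prrx1, the 3 genes nearest in pattern to each regulator with an unadjusted p under 0.05, and from each list the called genes or, with none called, the 2 with the smallest p and the most abundant one. Pparg, Mlycd, Cpt1b, Atp5b, Tfam, Mef2a, Mef2c, Pcm1, the other cardiomyocyte markers named, the adipocyte markers and the genes listed as called without control replicate 1 lie outside this rule and were picked after their values were seen. The result of 1 gene that this rule names is not reported here.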

Additional observations from a re-analysis of the deposited data

How the results depend on the processing

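The number of genes called over all genes was 2 in limma (1739 with an unadjusted p under 0.05) and 244 in DESeq2, 436 with the ribosomal RNA covariate, 1521 with library quality weights, 0 in edgeR (1753 unadjusted) and 0 with quantile scaling, with scaling to totals without ribosomal RNA genes and with the replicate block (1361 unadjusted). Leaving out each library gave between 0 and 1312, the highest without control replicate 1. The number of regulators called was 0 in limma, 1 in DESeq2, 3 with quality weights and 4 with the covariate, and between 0 and 2 with a library left out. The median log2 fold change of the 9 tested regulators was 0.84, 1.21 with the covariate and 0.49 with scaling to totals without ribosomal RNA genes, which moved the median of all genes by −0.35, and between 0.60 and 1.12 with a library left out. The replicate block left that median at 0.84 and called 0 regulators. Same-numbered libraries did not deviate together (correlations of −0.11, −0.02 and −0.09): no library of the Prrx1(R1A)-/- group correlated best with the control of its own number.

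Signs turned for 3 regulators. Ppargc1a was −0.030 without control replicate 1 and reached 1.56 without control replicate 3. Nrf1 was −0.046 with quality weights, −0.26 with scaling to totals without ribosomal RNA genes, −0.016 without Prrx1(R1A)-/- replicate 3 and between −0.058 and 0.27 with a control library left out. Rxra was 0.11 with quality weights, 0.014 without Prrx1(R1A)-/- replicate 3 and between −0.28 and 0.17 with a control library left out. The cause was not tested. Reads were fewest for Rxrg and Esrrb, whose lowest libraries held 2 and 25 reads.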
